A study of Homo sapiens with 16 samples.

Results

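HIST1H4C-rich cells are the SK-N-AS cells chosen by the measured share of HIST1H4C, in which it made up 0.5% or more of all counts, and they are set here against the cells without a single HIST1H4C count, called HIST1H4C-zero cells. HIST1H4C (H4C3 in the current nomenclature) encodes histone H4. By this rule 133 of the 603 cells (22.1%) were HIST1H4C-rich and 119 (19.7%) were HIST1H4C-zero, and the other 351 cells (58.2%) lay between. The comparison asks which transcripts accompany a high histone mRNA share, read as a sign of S phase. SK-N-AS is an established human neuroblastoma cell line. All cells were untreated, grew in RPMI1640 medium with fetal calf serum (10%) and penicillin/streptomycin (1%), and were sorted singly into 384-well plates for MARS-seq, in which each well receives its own barcode and RNA is captured by its poly(A) tail. The labels describe 16 samples, but all cells stand in 1 table whose column names show no sample, so no cell could be assigned to one of them. The cells were therefore treated as 1 sample, with no replicates to compare.

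During S phase a cell copies its DNA and doubles its stock of core histones. The replication-dependent histone genes, most of them in clusters, are transcribed mainly in S phase, and their mRNAs usually end in a stem-loop bound by SLBP in place of a poly(A) tail. Genes for the replication machinery and for nucleotide supply are switched on ahead of and during S phase, many of them by E2F factors, while the regulators of mitosis accumulate later, in G2. The labels give poly(A) RNA as the molecule, so the histone counts come from whatever histone transcripts were captured by that route.

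HIST1H4C chose the cells, so its own values are a description. HIST1H4C-rich cells had 6 to 64 HIST1H4C counts each, with a median of 18. Their summed level was 8392 CPM (the group's counts scaled to a library of fixed size, 95% Poisson interval 8088 to 8705), and they held 65.3% of all 4391 HIST1H4C counts. With 3 counts in place of the 0 in HIST1H4C-zero cells, the level was 645-fold higher in HIST1H4C-rich cells, by construction. That figure leaves out counting error in HIST1H4C-rich cells. HIST1H4C alone accounted for 78.1% of all counts on replication-dependent histone rows. The cells just inside the bound had shares of 0.503% (11 of 2188 counts), 0.504% (28 of 5557) and 0.513% (8 of 1558). The cells just outside it had 0.487% (19 of 3898), 0.490% (12 of 2450) and 0.491% (6 of 1223), and 57 cells lay within 0.1 percentage points of the bound. The measured share thus ran on across the bound without a clear gap. Whether HIST1H4C-rich cells are a separate type of cell was not tested, since counting error in single cells could blur a gap.

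The groups differed in depth. HIST1H4C-rich cells had totals of 1015 to 9989 counts (median 2336) and HIST1H4C-zero cells 1004 to 5664 (median 1704), and the median number of genes was 1256 in HIST1H4C-rich and 993 in HIST1H4C-zero cells. Totals under 1500 counts were found in 28 HIST1H4C-rich cells and 46 HIST1H4C-zero cells, and totals over 3000 in 34 HIST1H4C-rich and 14 HIST1H4C-zero cells. Counts per cell were therefore also compared after drawing 1100 counts from each cell, which kept 123 HIST1H4C-rich and 108 HIST1H4C-zero cells. At that depth 181 of all 560 cells had no HIST1H4C count, including cells outside the HIST1H4C-zero group. The columns fall into 2 runs with 239 barcodes in common, called barcode sets 1 and 2 here. The labels name no such runs, so what sets them apart is not known. HIST1H4C-rich cells made up 22.2% of set 1 and 22.0% of set 2, and HIST1H4C-zero cells 23.7% and 15.3%.

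**Figure D1:**
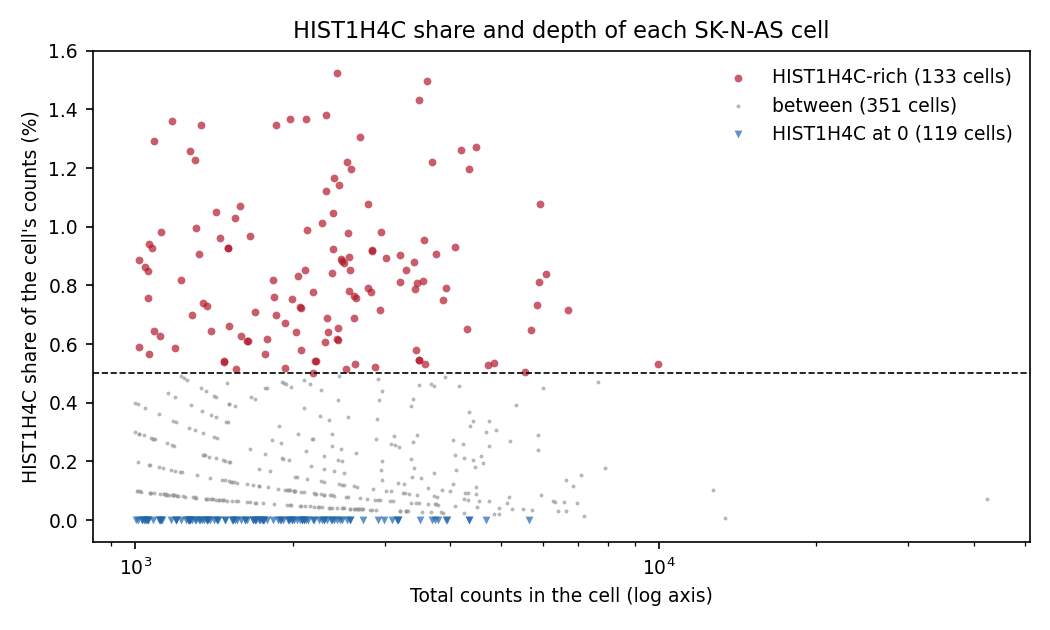
HIST1H4C share of each cell's counts (%, vertical axis) against the cell's total counts (log axis), 1 point a cell, with the dashed line at 0.5%. The 133 HIST1H4C-rich cells and the 119 HIST1H4C-zero cells overlap over most of the range of totals, and the highest total among HIST1H4C-zero cells was 5664 counts.

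Promoters are shown for the 3 genes with the highest lower bound of the ratio between the groups, HIST1H1E, HIST1H1B and EXO1, and for TYMS, RRM2 and PCNA, named as markers of the comparison. Each window, from RefSeq on GRCh38.p14, runs from 250 bases before to 50 bases after the gene's start and is printed along the gene's strand. The deposited counts rest on hg19, and no coordinates were carried between the builds. Capitals mark 3 motifs searched on both strands, which did not overlap in these windows. These are the E2F-type octamers TTTCGCGC, TTTGGCGC, TTTCCCGC and TTTGCCGC, the CCAAT box, and AAACACA, a box known from histone H1 promoters. HIST1H1E (H1-4), a linker histone, lies at chr6:26156079-26156378 on the plus strand. HIST1H1B (H1-5), another linker histone, lies at chr6:27867539-27867838 on the minus strand. EXO1, an exonuclease of mismatch repair and DNA end resection, lies at chr1:241847954-241848253 on the plus strand. TYMS, which makes thymidylate, lies at chr18:657403-657702 on the plus strand. RRM2, the small subunit of ribonucleotide reductase, lies at chr2:10122489-10122788 on the plus strand. PCNA, the sliding clamp of the replication fork, lies at chr20:5126573-5126872 on the minus strand.
HIST1H1E: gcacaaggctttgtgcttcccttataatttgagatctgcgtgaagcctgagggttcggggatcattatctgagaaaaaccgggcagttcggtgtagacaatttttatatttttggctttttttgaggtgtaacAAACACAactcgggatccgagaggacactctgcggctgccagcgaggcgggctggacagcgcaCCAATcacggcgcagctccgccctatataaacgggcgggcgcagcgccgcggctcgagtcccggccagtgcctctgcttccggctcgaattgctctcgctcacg
HIST1H1B: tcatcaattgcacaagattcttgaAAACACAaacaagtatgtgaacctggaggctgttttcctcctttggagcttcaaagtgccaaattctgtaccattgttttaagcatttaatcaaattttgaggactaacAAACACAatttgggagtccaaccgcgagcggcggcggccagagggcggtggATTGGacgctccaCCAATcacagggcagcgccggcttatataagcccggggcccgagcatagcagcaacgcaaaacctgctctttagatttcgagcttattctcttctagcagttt
EXO1: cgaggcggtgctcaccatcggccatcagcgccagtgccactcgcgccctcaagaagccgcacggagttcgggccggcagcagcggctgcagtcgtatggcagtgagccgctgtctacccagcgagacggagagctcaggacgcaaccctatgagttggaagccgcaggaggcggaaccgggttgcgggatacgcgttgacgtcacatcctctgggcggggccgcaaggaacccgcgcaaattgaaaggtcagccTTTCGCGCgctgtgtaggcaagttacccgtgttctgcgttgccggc
TYMS: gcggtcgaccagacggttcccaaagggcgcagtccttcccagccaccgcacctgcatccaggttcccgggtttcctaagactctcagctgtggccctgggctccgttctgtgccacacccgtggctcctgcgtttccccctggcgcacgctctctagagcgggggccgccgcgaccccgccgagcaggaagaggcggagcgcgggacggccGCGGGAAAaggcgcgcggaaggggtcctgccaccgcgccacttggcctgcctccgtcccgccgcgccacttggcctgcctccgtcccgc
RRM2: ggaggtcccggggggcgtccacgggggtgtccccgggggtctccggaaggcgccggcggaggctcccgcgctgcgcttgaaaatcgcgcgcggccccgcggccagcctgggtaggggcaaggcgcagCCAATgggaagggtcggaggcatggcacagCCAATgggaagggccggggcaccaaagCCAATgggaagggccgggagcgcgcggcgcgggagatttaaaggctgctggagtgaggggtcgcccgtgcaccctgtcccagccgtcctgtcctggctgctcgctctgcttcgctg
PCNA: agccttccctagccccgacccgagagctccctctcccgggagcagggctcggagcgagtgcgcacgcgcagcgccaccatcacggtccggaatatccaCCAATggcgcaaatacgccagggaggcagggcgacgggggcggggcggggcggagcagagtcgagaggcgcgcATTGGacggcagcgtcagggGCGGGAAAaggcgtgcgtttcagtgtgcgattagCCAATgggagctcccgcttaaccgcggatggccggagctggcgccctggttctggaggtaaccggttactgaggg

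Both H1 windows held AAACACA and CCAAT, with an AAACACA at -117 from the gene start in each. EXO1, TYMS and PCNA held an E2F-type octamer, at +5, -39 and -59 in that order, whereas RRM2 held 3 CCAAT boxes and none of the 4 octamers. Over a wider set, an E2F-type octamer was found in 13 of 73 matched windows (17.8%) of the genes at least 2-fold higher in HIST1H4C-rich cells. It was found in 1 of 39 (2.56%) of those at least 2-fold lower, in 129 of 2325 (5.55%) of the genes compared, and in 3.31% of all 35116 windows. CCAAT was found in 49.3% of windows of the higher genes, 41.0% of the lower, 38.8% of the genes compared and 34.6% of all windows. AAACACA, which 4 higher genes held (5.48%), was found in 2.49% of the genes compared and 5.64% of all windows. A match is only a match of letters and was not tied to binding. The genes compared had at least 100 counts over all cells, HIST1H4C-rich cells included. A gene could thus enter the higher set through its HIST1H4C-rich counts, as EXO1 did with 51 of its 103 counts there. The difference in motif shares was not tested.

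TYMS, RRM2 and PCNA, named beside HIST1H4C as signs of S phase, had higher summed levels in HIST1H4C-rich cells. TYMS had 401 CPM in HIST1H4C-rich cells, against 200 CPM in HIST1H4C-zero cells, a log2 ratio of 1.01 (95% interval 0.51 to 1.52). PCNA had 316 CPM in HIST1H4C-rich cells and 121 CPM in HIST1H4C-zero cells, a log2 ratio of 1.38 (0.77 to 2.03). RRM2 had 132 CPM in HIST1H4C-rich cells and 47.7 CPM in HIST1H4C-zero cells, a log2 ratio of 1.46 (0.49 to 2.56). Here and below, a log2 ratio is HIST1H4C-rich over HIST1H4C-zero, with an exact conditional interval that covers counting error only, not differences between cells or cultures. Single cells overlapped widely. TYMS was at 0 counts in 54, at 1 in 45 and at 2 or more in 34 of the 133 HIST1H4C-rich cells (highest 5), and at 0 in 88, at 1 in 23 and at 2 or more in 8 of the 119 HIST1H4C-zero cells (highest 4). PCNA was at 0 in 66 and at 2 or more in 26 HIST1H4C-rich cells, and at 0 in 99 and at 2 or more in 5 HIST1H4C-zero cells. At 1100 counts a cell, any of the 3 genes was seen in 83 of 123 HIST1H4C-rich cells (67.5%, Clopper-Pearson interval 58.4 to 75.6) and in 31 of 108 HIST1H4C-zero cells (28.7%, 20.4 to 38.2). These intervals cover the counting of cells only, and some HIST1H4C-zero cells had the transcripts too. The ratios differed between barcode sets, with PCNA at 2.51 in set 1 and 0.45 in set 2, TYMS at 1.54 and 0.50, and RRM2 at 1.87 and 1.00.

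Most genes had near-equal levels. Among 2765 genes with at least 100 counts over all cells, the median log2 ratio was -0.0033, and the 5th and 95th percentiles were -0.73 and 0.79. At least 2-fold higher in HIST1H4C-rich cells were 81 genes (2.93%), and at least 2-fold lower were 48 (1.74%), so that 4.67% passed that size either way. The interval lay above 0 for 195 genes and below 0 for 166. Since cells could not be assigned to samples there was no test, and these counts describe size only.

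Replication genes were higher as a group. Over the 3 lists for licensing, for origin firing and the fork, and for nucleotide supply (74 genes), the summed level was 9193 CPM in HIST1H4C-rich cells and 5185 CPM in HIST1H4C-zero cells, a log2 ratio of 0.83 (0.73 to 0.92). Of the 30 members with at least 100 counts, 18 were at least 2-fold higher, against 2.93% of all genes compared, and none was 2-fold lower. Their median log2 ratio was 1.09. The minimum of 100 counts was taken over all cells, HIST1H4C-rich cells included, here and wherever else it is used. A gene could thus pass it through its HIST1H4C-rich counts, as RRM2 did with 45 of its 122 counts there. The summed level of the 74 genes does not depend on that minimum. At 1100 counts a cell, HIST1H4C-rich cells held 2 to 18 replication counts (median 10) and HIST1H4C-zero cells 0 to 16 (median 5). The ranges overlapped nearly throughout while the medians stood apart. The list's log2 ratio was 0.99 in barcode set 1 and 0.60 in set 2, and 0.81 among cells with totals of 1500 to 3000 counts.

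Replication licensing, the loading of the MCM helicase on origins, had 1904 CPM in HIST1H4C-rich cells and 972 CPM in HIST1H4C-zero cells, a log2 ratio of 0.97 (0.75 to 1.2). All 9 members with at least 100 counts had intervals above 0, and 5 were at least 2-fold higher. CDT1, a helicase loading factor, and the helicase subunit MCM5 both had a log2 ratio of 1.43 (0.28 to 2.76). The subunits MCM4 and MCM3 followed with 1.32 (0.53 to 2.19) and 1.11 (0.44 to 1.84), and ORC6, of the origin recognition complex, with 1.07 (0.26 to 1.95). MCM7, the member with the most counts, had 342 CPM in HIST1H4C-rich cells and 174 CPM in HIST1H4C-zero cells. GMNN, the inhibitor of CDT1, had a log2 ratio of 0.90 (0.071 to 1.79), so an inhibitor and its target were both higher. CDC6, another loader with 88 counts in all, had 0.50 with an interval (-0.65 to 1.75) that held 0.

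The genes of origin firing and the fork had 3141 CPM in HIST1H4C-rich cells and 1536 CPM in HIST1H4C-zero cells, a log2 ratio of 1.03 (0.86 to 1.21). All 10 members with at least 100 counts had intervals above 0, and 7 were at least 2-fold higher. CDC45, the helicase activator loaded when an origin fires, had 196 CPM in HIST1H4C-rich cells and 39.1 CPM in HIST1H4C-zero cells, a log2 ratio of 2.33 (1.32 to 3.52). It was seen in 54 HIST1H4C-rich cells and 9 HIST1H4C-zero cells, and at 1100 counts a cell in 17.9% of HIST1H4C-rich and 5.56% of HIST1H4C-zero cells. CLSPN, a mediator of the replication checkpoint, had a log2 ratio of 1.82 (0.71 to 3.13), and RPA1, which binds single-stranded DNA, had 1.75 (0.56 to 3.17). LIG1, which joins Okazaki fragments, had 1.39 (0.37 to 2.56), and the clamp loader subunit RFC5 had 1.18 (0.18 to 2.30). POLD2, a subunit of polymerase delta, had the smallest ratio, with 538 CPM in HIST1H4C-rich cells, 412 CPM in HIST1H4C-zero cells and a log2 ratio of 0.38 (0.020 to 0.76). GINS1, of the complex that joins CDC45 on the helicase, had only 62 counts over all cells and a log2 ratio of 2.80 (1.12 to 5.15).

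Nucleotide supply was split. The list had 4148 CPM in HIST1H4C-rich cells and 2677 CPM in HIST1H4C-zero cells, a log2 ratio of 0.63 (0.49 to 0.77). Of its 11 members with at least 100 counts, the 6 with intervals above 0 were all at least 2-fold higher. They were TYMS, RRM2, TK1, DUT, CTPS and DCTPP1, which act in making or clearing nucleotides. TK1, thymidine kinase, had 778 CPM in HIST1H4C-rich cells and 356 CPM in HIST1H4C-zero cells, a log2 ratio of 1.13 (0.77 to 1.5). DUT, which removes dUTP, had 336 CPM in HIST1H4C-rich cells and 130 CPM in HIST1H4C-zero cells, a log2 ratio of 1.37 (0.78 to 2.0). With the groups remade at 1100 counts, the ratio of DUT was 0.75 in one random draw and -0.078 in another, and it was 0.66 against cells under 0.1% HIST1H4C, so its direction depended on the draw. The purine enzymes PAICS and IMPDH2 had 0.56 (-0.20 to 1.36) and 0.25 (-0.25 to 0.77), and the nucleoside diphosphate kinase NME1 had -0.013 (-0.26 to 0.24). RRM1, the large subunit of ribonucleotide reductase, had 28 counts in HIST1H4C-rich cells and none in HIST1H4C-zero cells, 6.29-fold higher when set against 3 counts.

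**Figure D2:**
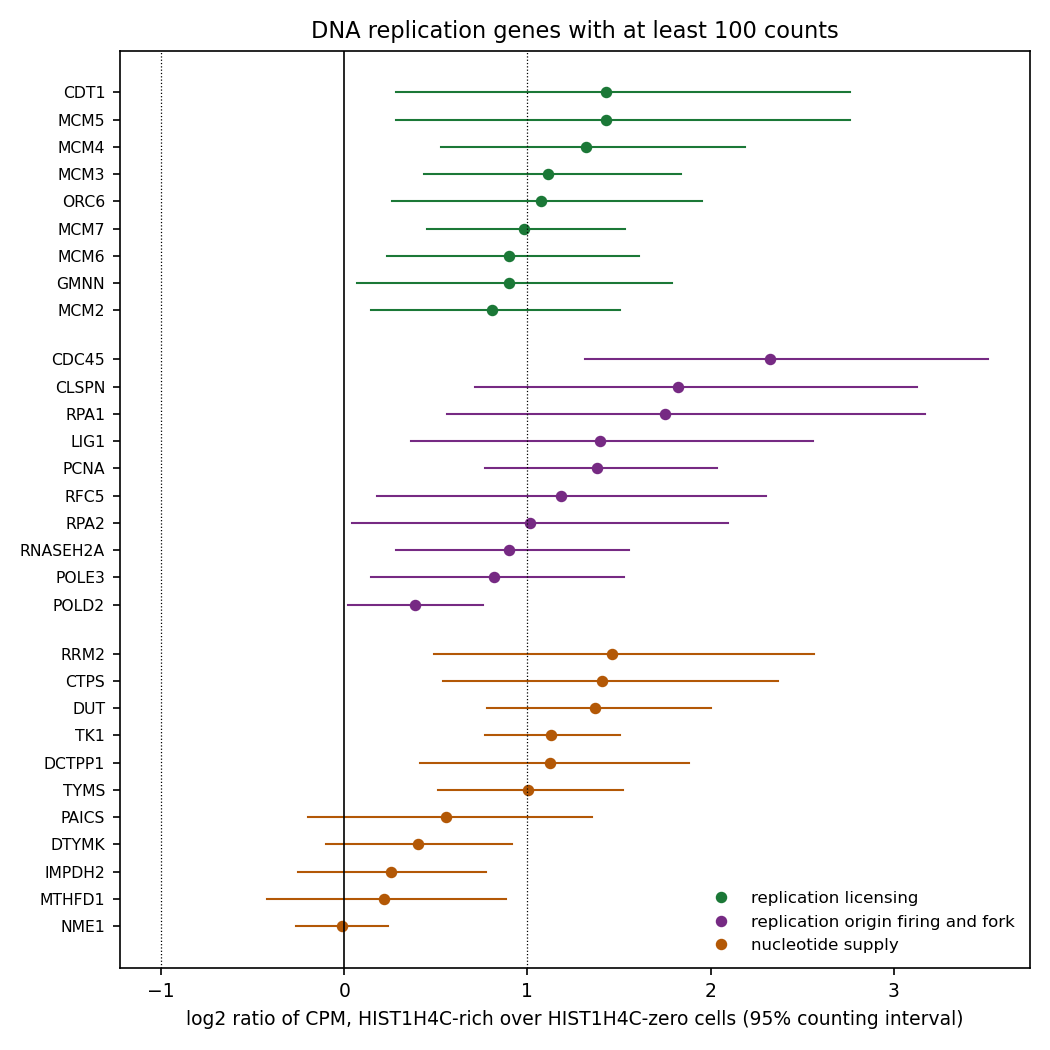
log2 ratio of CPM in HIST1H4C-rich over HIST1H4C-zero cells (points) with 95% counting intervals (lines) for the 30 replication genes with at least 100 counts, in 3 lists, with dotted lines at a 2-fold difference. CDC45 stands furthest right at 2.33, and NME1 alone lies left of 0, at -0.013.

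The other replication-dependent histones were higher too, except for H2B. Without HIST1H4C, 66 histone rows were matched, of which 23 had no count in any cell. Their sum was 1422 CPM in HIST1H4C-rich cells and 551 CPM in HIST1H4C-zero cells, a log2 ratio of 1.37 (1.08 to 1.66), and 1.36 in each barcode set. HIST1H1E had 295 CPM in HIST1H4C-rich cells and 21.7 CPM in HIST1H4C-zero cells, a log2 ratio of 3.77 (2.50 to 5.42). It was at 0 counts in 69, at 1 in 46 and at 2 or more in 18 HIST1H4C-rich cells, and at 0 in 114, at 1 in 5 and at 2 or more in 0 HIST1H4C-zero cells. HIST1H1B had 219 CPM in HIST1H4C-rich cells and 17.4 CPM in HIST1H4C-zero cells, a log2 ratio of 3.66 (2.24 to 5.57). HIST1H1C, a linker histone also expressed outside S phase, had 339 CPM in HIST1H4C-rich cells and 148 CPM in HIST1H4C-zero cells, a log2 ratio of 1.20 (0.64 to 1.80). HIST1H2BK went the other way, with 90.7 CPM in HIST1H4C-rich cells and 191 CPM in HIST1H4C-zero cells, a log2 ratio of -1.07 (-1.79 to -0.38).

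By family, H1 had a log2 ratio of 2.16 (1.70 to 2.65). H2A had 98 counts in HIST1H4C-rich cells and 8 in HIST1H4C-zero cells, with 3.05 (2.01 to 4.30), and H3 had 43 counts in HIST1H4C-rich and 2 in HIST1H4C-zero cells, with 3.86 (1.92 to 6.95). H2B had 45 counts in HIST1H4C-rich cells and 73 in HIST1H4C-zero cells, with -1.27 (-1.84 to -0.71), most of them from HIST1H2BK. HIST1H2BD had a log2 ratio of -1.57 (-3.27 to -0.043) on 43 counts in all. HIST1H2BK and HIST1H2BD are known to yield polyadenylated transcripts outside S phase. Whether that bears on the H2B value was not tested. The other H4 rows held 13 counts over all cells, 8 of them in HIST1H4C-rich cells and 0 in HIST1H4C-zero cells, so HIST1H4C was almost the whole of the H4 signal. Histone paralogs are nearly identical over much of their coding sequence, and the sources used here do not say how reads shared between them were counted, so a single paralog's value is uncertain.

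The list of histone variants had a smaller difference. The 6 variants with at least 100 counts summed, with the rest of their list, to a log2 ratio of 0.35 (0.23 to 0.47). H2AFZ, which encodes H2A.Z, had 2287 CPM in HIST1H4C-rich cells and 1666 CPM in HIST1H4C-zero cells, a log2 ratio of 0.46 (0.28 to 0.64). H3F3B, an H3.3 gene, had 0.30 (0.069 to 0.53), and H2AFX had 0.59 (0.059 to 1.13). The list of histone mRNA processing and chaperones had a log2 ratio of 0.39 (0.20 to 0.57). Within it ASF1B, which hands H3 and H4 to the chromatin assembly factor, had 173 CPM in HIST1H4C-rich cells and 56.4 CPM in HIST1H4C-zero cells, a log2 ratio of 1.61 (0.73 to 2.60). CHAF1B, a subunit of that assembly factor, had 1.48 (0.33 to 2.80), and the chaperone NASP had 0.53 (0.11 to 0.98). SLBP, which binds the histone stem-loop, had 0.53 with an interval of -0.13 to 1.22.

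Genes of DNA repair, cohesion and S phase entry were sparse. The DNA repair and checkpoint list had a log2 ratio of 0.73 (0.41 to 1.07), with 2 of 25 members at 100 counts or more, EXO1 and PARP1. EXO1 had 51 counts in HIST1H4C-rich cells and 3 counts in HIST1H4C-zero cells, a log2 ratio of 3.52 (1.89 to 5.84). It was seen in 35 HIST1H4C-rich cells and 3 HIST1H4C-zero cells, and at 1100 counts a cell in 13.8% of HIST1H4C-rich and 1.85% of HIST1H4C-zero cells. PARP1, a sensor of DNA breaks, had -0.22 (-0.73 to 0.30). The list of replication-coupled chromatin factors had 0.32 (0.035 to 0.61), led by EZH2, the H3K27 methyltransferase, at 1.18 (0.18 to 2.30). CDCA5, which stabilises cohesin on replicated chromatids, had 181 CPM in HIST1H4C-rich cells and 39.1 CPM in HIST1H4C-zero cells, a log2 ratio of 2.22, and the condensin subunit NCAPD3 had 1.52 (0.59 to 2.56). The cohesin and condensin list had a log2 ratio of 0.70 (0.43 to 0.97), with 1.11 in barcode set 1 and 0.19 in set 2. The list of G1 cyclins, E2F and S phase entry had 0.34 (0.11 to 0.57), and 0 of its 7 members with at least 100 counts passed 2-fold either way. Within it the G1 cyclins CCND1 and CCND3 had -0.49 (-1.07 to 0.095) and 0.40 (-0.12 to 0.94). E2F1, just under the minimum with 93 counts, had 102 CPM in HIST1H4C-rich cells and 21.7 CPM in HIST1H4C-zero cells, a log2 ratio of 2.24 (0.88 to 3.95). CDKN1A, the p21 inhibitor of cyclin-dependent kinases and a p53 target, had 167 CPM in HIST1H4C-rich cells and 52.1 CPM in HIST1H4C-zero cells, a log2 ratio of 1.68 (0.76 to 2.71). Its whole list had 0.092 (-0.21 to 0.40).

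The G2/M genes divided in both directions. The list of 52 genes had 7965 CPM in HIST1H4C-rich cells and 7420 CPM in HIST1H4C-zero cells, a log2 ratio of 0.10 (0.014 to 0.19), with 0.28 in barcode set 1 and -0.13 in set 2. Of its 29 members with at least 100 counts, 4 were at least 2-fold higher and 3 at least 2-fold lower, beside 2.93% and 1.74% of all genes compared. CDK1, the mitotic kinase, had 146 CPM in HIST1H4C-rich cells and 34.7 CPM in HIST1H4C-zero cells, a log2 ratio of 2.07 (0.99 to 3.36). AURKB and CDCA8, 2 members of the chromosomal passenger complex, had log2 ratios of 1.98 (0.81 to 3.38) and 1.56 (0.43 to 2.88). The kinetochore gene SPC25 had 1.20 (0.15 to 2.38). HMGB2, an abundant chromatin protein, had 1679 CPM in HIST1H4C-rich cells and 1163 CPM in HIST1H4C-zero cells, a log2 ratio of 0.53 (0.32 to 0.74).

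Intervals below 0 were found for 7 of the 29 genes, while those of other mitotic genes of the list, among them CDC20, AURKA and PTTG1, held 0. CCNB1, the cyclin that activates CDK1, had 43.9 CPM in HIST1H4C-rich cells and 121 CPM in HIST1H4C-zero cells, a log2 ratio of -1.47 (-2.48 to -0.52). PLK1, a kinase of mitotic entry, had 102 CPM in HIST1H4C-rich cells and 230 CPM in HIST1H4C-zero cells, a log2 ratio of -1.17 (-1.83 to -0.52). CENPF, a kinetochore protein, had 164 CPM in HIST1H4C-rich cells and 334 CPM in HIST1H4C-zero cells, a log2 ratio of -1.03 (-1.55 to -0.51). KIF20A, CCNB2, CDC25B and TPX2 also had intervals below 0, with log2 ratios of -0.98, -0.89, -0.57 and -0.48. The kinase CDK1 and its cyclin CCNB1 thus had ratios of opposite sign.

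**Figure D3:**
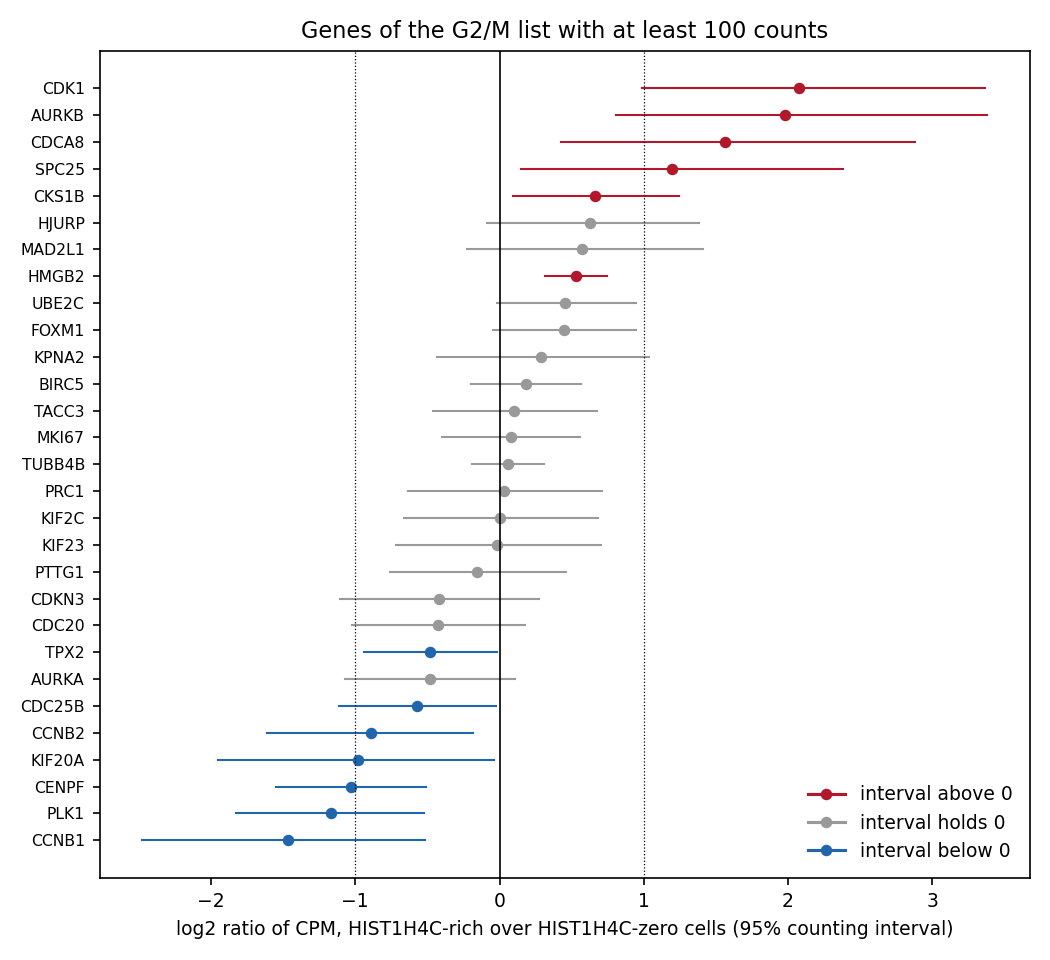
log2 ratio of CPM in HIST1H4C-rich over HIST1H4C-zero cells (points) with 95% counting intervals (lines) for the 29 genes of the G2/M list with at least 100 counts. The intervals of 6 genes lie above 0, led by CDK1 at 2.07, and those of 7 lie below 0, with CCNB1 lowest at -1.47.

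At equal depth the G2/M counts per cell were spread differently in the groups. HIST1H4C-rich cells held 0 to 23 G2/M counts of 1100, with a median of 8 and quartiles of 6 and 11. HIST1H4C-zero cells held 0 to 29, with a median of 4 and quartiles of 2 and 12, so their quartiles lay further apart. Over all cells the medians were 8 replication counts and 7 G2/M counts. Above both were 34.1% of HIST1H4C-rich and 13.9% of HIST1H4C-zero cells. Above the replication median alone were 35.0% of HIST1H4C-rich and 7.41% of HIST1H4C-zero cells. Above the G2/M median alone were 18.7% of HIST1H4C-rich and 23.1% of HIST1H4C-zero cells. Above neither were 12.2% of HIST1H4C-rich and 55.6% of HIST1H4C-zero cells. Cells low for both lists were thus the most common kind among HIST1H4C-zero cells.

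**Figure D4:**
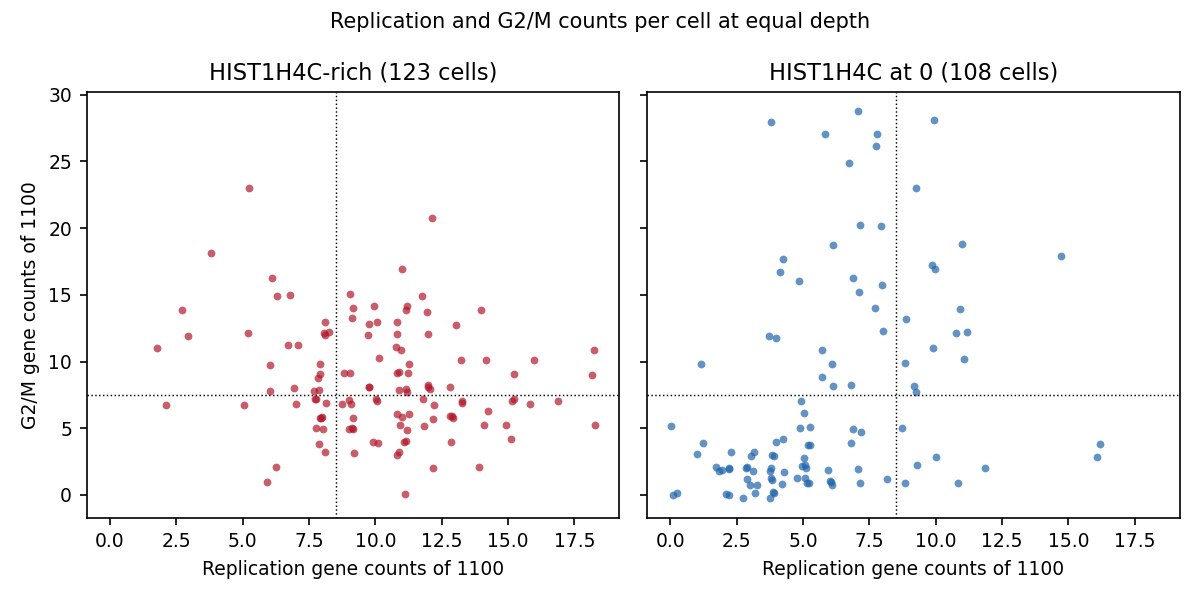
Counts of G2/M genes against counts of replication genes in each cell after drawing 1100 counts, 1 slightly jittered point a cell, for 123 HIST1H4C-rich cells (left) and 108 HIST1H4C-zero cells (right), with dotted lines just above the medians of all cells. HIST1H4C-rich cells gather at the right, and 55.6% of HIST1H4C-zero cells lie at the lower left while others reach 29 G2/M counts.

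MALAT1, a long noncoding RNA retained in the nucleus, had the lowest ratio of the 2765 genes compared. It had 46.8 CPM (16 counts) in HIST1H4C-rich cells and 863 CPM (199 counts) in HIST1H4C-zero cells, a log2 ratio of -4.21 (-5.04 to -3.47), with -3.76 in barcode set 1 and -4.81 in set 2. It was at 0 in 118, at 1 in 14 and at 2 or more in 1 HIST1H4C-rich cell, and at 0 in 89, at 1 in 9 and at 2 or more in 21 HIST1H4C-zero cells, with up to 21 counts in a cell. The nuclear noncoding RNA list had a log2 ratio of -1.06 (-1.29 to -0.83), and -0.087 (-0.37 to 0.19) without MALAT1, left out after the values were seen, so MALAT1 carried the list's value. NEAT1, another of its members, had 0 counts in HIST1H4C-rich and 20 in HIST1H4C-zero cells, 9.89-fold lower with 3 counts in place of the 0. A MALAT1 count was found in 30 HIST1H4C-zero cells (25.2%), and the 29 of them with 1100 counts or more had a median of 17 G2/M counts of 1100, against 2 in the 79 such cells without one. Of 15 HIST1H4C-rich cells with a MALAT1 count (11.3%), the 14 deep enough had a median of 8, as had the 109 without one. By these medians G2/M counts went with MALAT1 among HIST1H4C-zero cells and did not among HIST1H4C-rich cells. This contrast was not tested, and a MALAT1 count was mostly a single count in HIST1H4C-rich cells. Replication counts had medians of 8 with and 5 without a MALAT1 count among HIST1H4C-zero cells, and 9.5 and 11 among HIST1H4C-rich cells. Cells with a MALAT1 count were deeper, with median totals of 2158 against 1592 among HIST1H4C-zero and 3565 against 2315.5 among HIST1H4C-rich cells. Without all cells that had a MALAT1 count, the log2 ratio of the G2/M list was 1.01. That alternative was chosen after the values were seen.

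Levels were also followed over 5 ranges of HIST1H4C share, from 0 (119 cells) through under 0.25% (253), 0.25 to under 0.5% (98) and 0.5 to under 1% (104) to 1% or more (29). The replication genes had 5185, 6187, 8409, 9154 and 9337 CPM, most of the difference lying below the 0.5% bound. The other replication-dependent histones had 551, 605, 754, 1230 and 2120 CPM, with the steepest part above it. HIST1H1E had 21.7, 47.8, 141, 231 and 530.0 CPM. CDK1 had 34.7, 42.4, 94.2, 108 and 285 CPM, so its level in the last range was above that in each of the others. PLK1 had 230, 232, 214, 104 and 95.1 CPM, and MALAT1 had 863, 305, 51.4, 48.5 and 40.8 CPM. Across all 560 cells at equal depth, HIST1H4C counts and replication counts had a Spearman rho of 0.44 (Pearson's r 0.39). With the other histones the rho over all cells was 0.27, and with the G2/M genes 0.23. Within the 123 HIST1H4C-rich cells the rho was -0.029 with replication counts, 0.12 with other histones and 0.071 with G2/M genes. Those cells were chosen by HIST1H4C share, which narrows its range, so their rho values cannot be set directly against those of all cells. These are descriptions across cells that could not be assigned to samples, not tests.

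**Figure D5:**
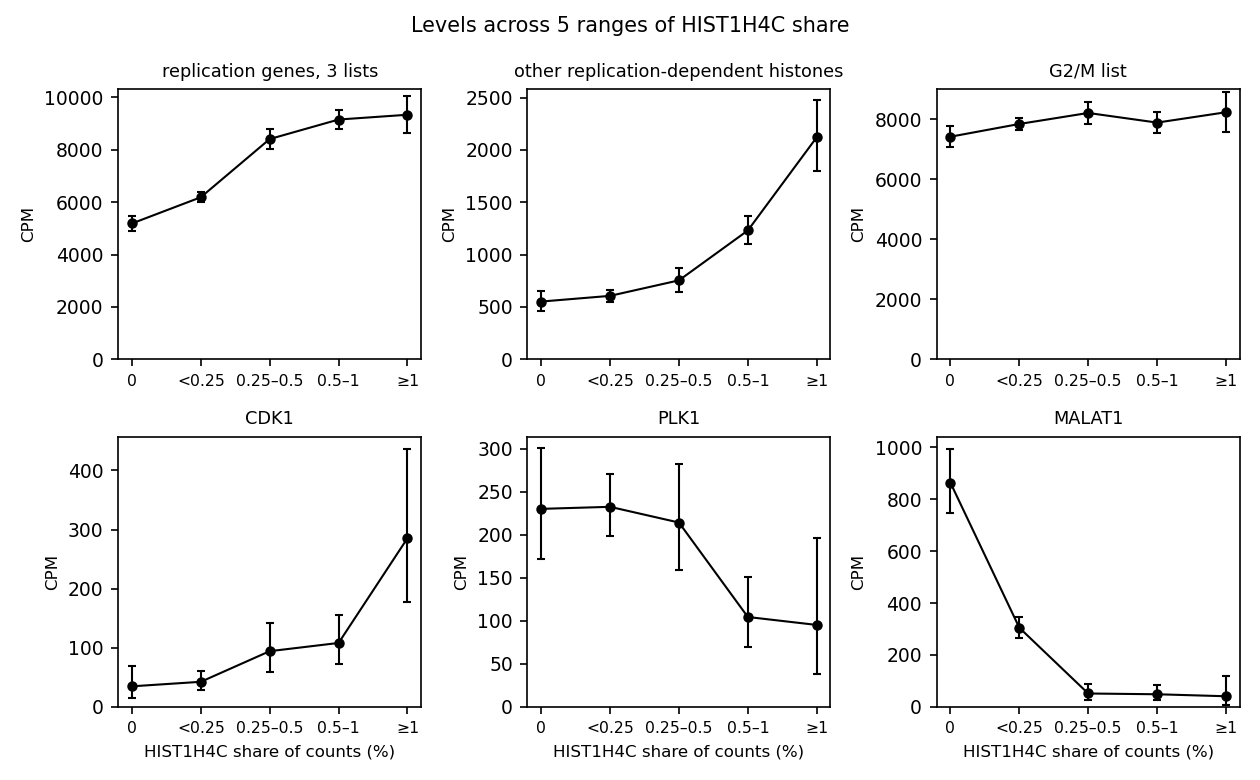
CPM (vertical axis) in 5 ranges of HIST1H4C share (%), with 95% Poisson intervals, for the replication genes, the other replication-dependent histones, the G2/M list, CDK1, PLK1 and MALAT1. The other histones are highest at 1% or more (2120 CPM), PLK1 is near 230 CPM at 0 and 95.1 CPM at 1% or more, and MALAT1 is highest at 0 (863 CPM).

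By the rule for named genes, the 15 genes with the highest lower bound of the log2 ratio were HIST1H1E, HIST1H1B, EXO1, CDCA4, CDC45, RPL34, CDCA5, ZWINT, TCF19, CDK1, AURKB, MANF, DUT, PTX3 and PCNA. They are extremes of 2765 ratios, and their intervals do not allow for that choice. Several reached the minimum of 100 counts only with their HIST1H4C-rich counts, such as HIST1H1B (75 of 117) and CDK1 (50 of 111). CDCA4, a nuclear E2F-responsive gene, had 205 CPM in HIST1H4C-rich cells and 26.0 CPM in HIST1H4C-zero cells, a log2 ratio of 2.98 (1.78 to 4.47), with 2.97 and 3.05 in the barcode sets. ZWINT, a kinetochore protein, had 313 CPM in HIST1H4C-rich cells and 95.5 CPM in HIST1H4C-zero cells, a log2 ratio of 1.71 (1.04 to 2.45). TCF19, a chromatin-binding factor of the G1 to S transition, had 1.97 (1.04 to 3.04). Not of the cell cycle machinery by known role were MANF, a secreted factor of the endoplasmic reticulum, and PTX3, a secreted pentraxin of innate immunity. MANF had 149 CPM in HIST1H4C-rich cells and 43.4 CPM in HIST1H4C-zero cells, a log2 ratio of 1.78 (0.79 to 2.93), and PTX3 had 538 CPM in HIST1H4C-rich cells and 230 CPM in HIST1H4C-zero cells, a log2 ratio of 1.23 (0.78 to 1.70). RPL34, a ribosomal protein gene, had a log2 ratio of 2.38 (1.24 to 3.76), but -1.16 with a bound of 1% in place of 0.5%. In HIST1H4C-rich cells 83.3% of its counts came from 5 cells. Ribosomal protein rows may share reads with pseudogenes, which was not tested.

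The 10 genes with the lowest upper bound were MALAT1, INS-IGF2, CHGA, C7, LSS, FAM167A, DDC, C20orf112, SHD and FTL. INS-IGF2, a row that joins INS-IGF2 and INS, had 257 CPM in HIST1H4C-rich cells and 1510 CPM in HIST1H4C-zero cells, a log2 ratio of -2.55 (-2.91 to -2.21). Few cells carried it, and 5 cells gave 94.3% of its counts in HIST1H4C-rich cells and 67.0% in HIST1H4C-zero cells. CHGA, a granin of secretory granules, had 23.4 CPM in HIST1H4C-rich cells and 130 CPM in HIST1H4C-zero cells, a log2 ratio of -2.48, with 93.3% of the HIST1H4C-zero counts in 5 cells. DDC, which makes dopamine, had 102 CPM in HIST1H4C-rich cells and 247 CPM in HIST1H4C-zero cells, a log2 ratio of -1.27, with 71.9% of the HIST1H4C-zero counts in 5 cells. The sizes of these 3 ratios thus rest largely on few cells, though INS-IGF2 was also seen in a larger share of HIST1H4C-zero cells. Without cells that had an INS-IGF2 count the log2 ratio was -0.16 for DDC and -0.88 for CHGA. C7, a complement component, had 49.7 CPM in HIST1H4C-rich cells and 174 CPM in HIST1H4C-zero cells, a log2 ratio of -1.80 (-2.72 to -0.95), with -0.92 in barcode set 1, -2.56 in set 2 and -0.53 with a bound of 0.25%. LSS, lanosterol synthase, had -1.96 (-3.35 to -0.73). FTL, the ferritin light chain in a joint row, had 5002 CPM in HIST1H4C-rich cells and 8097 CPM in HIST1H4C-zero cells, a log2 ratio of -0.69 (-0.79 to -0.60), with -0.90 in set 1 and -0.23 in set 2.

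Of the neuroblastoma state lists, the adrenergic one was lower. Adrenergic genes mark the sympathetic, catecholamine-making state of neuroblastoma cells, and mesenchymal genes a migratory, matrix-rich one. The adrenergic list had 1854 CPM in HIST1H4C-rich cells and 2651 CPM in HIST1H4C-zero cells, a log2 ratio of -0.52 (-0.68 to -0.35). Of its 24 rows, 9 had at least 100 counts. Of these 9, 4 were at least 2-fold lower, CHGA and DDC among them, beside 1.74% of all genes compared. Of the lineage transcription factors, GATA2 had -0.84 (-1.42 to -0.27), GATA3 -0.70 (-1.33 to -0.069) and HAND2 -0.57 (-1.05 to -0.091). The T-box factor TBX2 had 0.10 (-0.28 to 0.50), and SCG2, a granin and the list's member with the most counts, had -0.17 (-0.47 to 0.13). The list's ratio was -0.25 in barcode set 1 and -0.87 in set 2. It was -0.40 (-0.57 to -0.22) without CHGA and DDC and -0.26 (-0.46 to -0.070) without cells that had an INS-IGF2 count, both chosen after the values were seen. The mesenchymal list had 0.048 (-0.035 to 0.13), and VIM, vimentin, had 5271 CPM in HIST1H4C-rich cells and 5480 CPM in HIST1H4C-zero cells. Within it the AP-1 factor FOSL1 had a log2 ratio of 1.08 (0.55 to 1.64).

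Other programs had small ratios. Respiratory chain genes had a log2 ratio of 0.024 (-0.025 to 0.073), heat shock proteins 0.014 (-0.062 to 0.091) and cytosolic ribosomal proteins -0.052 (-0.070 to -0.033). The extracellular matrix list had 0.17 (0.057 to 0.28), within which TIMP2 had 0.85 (0.37 to 1.35) and DCN, decorin, -1.21 (-2.00 to -0.45). The interferon and MHC class I list had 0.21 (0.069 to 0.35), with B2M, beta-2-microglobulin, at 515 CPM in HIST1H4C-rich cells and 260 CPM in HIST1H4C-zero cells. The unfolded protein response and integrated stress response genes had -0.22 (-0.39 to -0.059). Glycolysis and hypoxia genes had 0.046 (-0.017 to 0.11), cholesterol synthesis genes 0.028 (-0.16 to 0.21), immediate early genes 0.29 (0.055 to 0.52) and MAPK targets -0.021 (-0.19 to 0.15). Markers of other cell types stayed low in both groups. All 6 erythroid rows were at 0 in every cell, as were 8 of 13 immune, 6 of 10 endothelial, 7 of 10 Schwann cell and 8 of 10 adrenal cortex rows. The immune list summed to 61.4 CPM in HIST1H4C-rich cells and 56.4 CPM in HIST1H4C-zero cells. CD68 gave 71.8% of its counts over all cells, and the immune markers TYROBP and CD3D were at 0. The Schwann cell marker SOX10 was at 0 as well. FLT1 gave 90.7% of the endothelial and SCARB1 84.0% of the adrenal cortex counts over all cells. ITGA4 gave 68.75% of the 16 Schwann cell counts over all cells. The endothelial list summed to 20.5 CPM in HIST1H4C-rich cells and 39.1 CPM in HIST1H4C-zero cells, the adrenal cortex list to 114 and 99.8 CPM in the same order, and the Schwann cell list to 9 and 0 counts. The epithelial list summed to 380.3 CPM in HIST1H4C-rich cells and 373 CPM in HIST1H4C-zero cells, most of it from the keratin KRT18, and 4 of its 10 rows were at 0.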

How the data were processed

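RNA was measured by MARS-seq in single SK-N-AS cells described by 16 sample labels, and the authors deposited raw counts, whole numbers for each gene in each cell, in 1 table of 603 cells and 27043 gene rows. Per the submitters' processing notes, alignment used Bowtie2 2.1.0 and the build hg19. The counting step, its annotation, the filter on cells and whether a count is a molecule or a read: not given in the sources used here. A row named unknown held 2 counts (0.00013%) and was left out. Column names show no sample, so the cells could not be assigned to the samples, were treated as 1, and nothing was tested. Cell totals ran from 1000 to 42404 counts. Cells were sorted singly into wells per the labels, so doublets were not called.

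The members and gene lists were chosen with earlier results of these data known. Cells with a HIST1H4C share of 0.5% or more and cells with 0 counts were summed with full counts. Levels are CPM with exact 95% Poisson intervals, and ratios have exact conditional binomial intervals, which cover counting error only, as do the limits of 3 counts for a count of 0. Genes with at least 100 counts were compared, and a 2-fold ratio was the size counted. The named genes are HIST1H4C, TYMS, RRM2 and PCNA, the 15 with the highest lower bound and the 10 with the lowest upper bound, the 4 members of each list with the most counts, members of the cell cycle lists with at least 50 counts and members of other cell types' lists at 0. Of these, the ones that matter are printed, and 1 list member is not reported here, though list values include it. In the 31 lists, 702 rows were matched and 1 symbol had no row. Thinning to 1100 counts used numpy 2.4.6 with a fixed seed. Python 3.11.15, pandas 2.3.3 and scipy 1.17.1 were used, and the interval script was checked on simulated counts.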

Additional observations from a re-analysis of the deposited data

How the results depend on the processing

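No paired analysis was possible because the columns carry no sample or replicate. In the order G2/M list, replication genes, other replication-dependent histones (log2 ratios), genes at least 2-fold higher and genes at least 2-fold lower, the reported values were 0.10, 0.83, 1.37, 81 and 48. Remaking the groups at 1100 counts gave 0.32, 0.72 and 1.03 with 105 lower genes, and another random draw 0.26 and 0.69 with 118 lower. Totals of 1500 to 3000 counts gave 179 and 118 genes. A bound of 1% gave 1.94 for the histones and 260 lower genes, and a bound of 0.25% gave 1.06 and 24. HIST1H4C-poor cells under 0.1% in place of HIST1H4C-zero cells gave 0.73 for the replication genes, with 36 and 31 genes. A mean over cells gave 0.25 for the G2/M list. Barcode set 1 gave 0.28 for the G2/M list and 0.99 for replication genes, with 166 and 82 genes, and set 2 gave -0.13 and 0.60, with 198 and 184, so the G2/M direction reversed. A minimum of 50 counts gave 246 and 201 genes, 200 counts 16 and 12, and 1 count in each group 1078 and 1170. Leaving out cells with a MALAT1 count gave 1.01 for the G2/M list, 0.98 for replication genes and 160 higher genes. The cause of these moves was not tested. The replication genes stayed between 0.60 and 0.99 and the other histones between 1.03 and 1.94 in all alternatives run. Of 317 values of 27 named genes over 12 alternatives, 270 stayed within their interval. The centring and the deepest cell were not among the 12, as they left these ratios nearly as they were. Totals without HIST1H4C and ribosomal protein genes also left them nearly so (TYMS 1.009) but were counted, which raises the number that stayed. Of the 317 values 2 reversed, DUT (-0.078 with another random draw) and RPL34 (-1.16 with a bound of 1%). Depth limits single cells: RRM2 had 0 counts in 104 of 133 HIST1H4C-rich cells, so a cell could not be classed by such genes.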
